A study of Homo sapiens with 2 samples.

Results

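CHD4 peaks at divergent protein-coding promoters are described here. They were chosen by position alone. A peak was a member when it lay within 1000 bp of both transcription start sites of a divergent pair, that is, a minus-strand protein-coding gene whose start lies 0 to 1000 bp before the start of a plus-strand protein-coding gene. In hg19, 883 such pairs were found among 1703 of the 20098 protein-coding genes of chromosomes 1 to 22 and X. Of the 60126 peaks in the deposited list, 357 were members, or 0.594% of the 60099 peaks on those chromosomes.

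The data are from 501Mel cells, an established human melanoma line. Chromatin was fixed with 0.4% paraformaldehyde, sonicated and immunoprecipitated for CHD4, and 1 CHD4 ChIP library was sequenced beside 1 input library. No cell in either library carried a labelled knockdown or drug treatment. Neither library was repeated, so no test was made, and the Wilson 95% intervals below cover the error of counting promoters or peaks only. The list holds no read counts, so depth could not be taken from it.

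CHD4 is the ATPase of the NuRD complex, which slides nucleosomes and brings histone deacetylases to chromatin. NuRD is found at both active promoters and enhancers. At a divergent promoter, genes on opposite strands start back to back from a shared, usually CpG-rich stretch that is kept free of nucleosomes, with ordered nucleosomes on the side of each gene. Many housekeeping genes, among them genes of DNA repair and mitochondria, are arranged in this way.

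The stretches between the starts of 10 pairs are printed because they show what lies between a pair with and without a CHD4 peak. They are 4 of the 10 pairs with the highest enrichment and 6 classical bidirectional promoters, each 40 to 300 bp between starts. Each is the plus strand of hg19, 5′ to 3′, without the start bases themselves. Capitals mark matches, on either strand, to the letters of NRF1 (GCATGCGC), ETS (CCGGAAGT), NF-Y (CCAATNNG), SP1/KLF (GGGCGGGG), CREB (TGACGTCA), YY1 (AAGATGGC), AP-1 (TGANTCA), the E-box (CACGTG) or the TATA box (TATAAA). No pair of these motifs shares its letters, though matches may overlap each other.
SHC1/CKS1B: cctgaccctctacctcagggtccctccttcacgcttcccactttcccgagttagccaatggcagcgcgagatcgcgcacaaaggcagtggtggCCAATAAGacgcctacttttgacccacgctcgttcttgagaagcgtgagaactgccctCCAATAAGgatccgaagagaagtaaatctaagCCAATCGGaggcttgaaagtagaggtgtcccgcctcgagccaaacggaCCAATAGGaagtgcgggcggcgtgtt
CEP89/FAAP24: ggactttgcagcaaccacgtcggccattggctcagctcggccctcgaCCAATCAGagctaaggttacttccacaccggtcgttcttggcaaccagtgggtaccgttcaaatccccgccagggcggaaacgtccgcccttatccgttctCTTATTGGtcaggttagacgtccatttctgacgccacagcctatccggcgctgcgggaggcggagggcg
WDR46/PFDN6: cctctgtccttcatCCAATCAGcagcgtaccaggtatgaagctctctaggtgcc
LONP1/CATSPERD: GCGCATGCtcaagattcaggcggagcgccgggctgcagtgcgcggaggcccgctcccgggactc
COL4A4/COL4A3: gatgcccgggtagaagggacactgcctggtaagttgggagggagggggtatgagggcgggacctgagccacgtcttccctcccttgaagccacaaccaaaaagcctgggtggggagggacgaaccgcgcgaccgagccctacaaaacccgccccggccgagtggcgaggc
PPAT/PAICS: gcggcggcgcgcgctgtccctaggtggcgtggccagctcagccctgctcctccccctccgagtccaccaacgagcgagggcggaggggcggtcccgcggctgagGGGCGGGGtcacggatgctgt
TK1/AFMID: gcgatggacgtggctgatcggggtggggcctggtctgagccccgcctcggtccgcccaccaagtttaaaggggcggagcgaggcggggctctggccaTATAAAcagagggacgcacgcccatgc
TMEM258/FEN1: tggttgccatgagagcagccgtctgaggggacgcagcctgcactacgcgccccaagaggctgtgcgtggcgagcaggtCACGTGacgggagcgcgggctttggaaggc
SARS2/MRPS12: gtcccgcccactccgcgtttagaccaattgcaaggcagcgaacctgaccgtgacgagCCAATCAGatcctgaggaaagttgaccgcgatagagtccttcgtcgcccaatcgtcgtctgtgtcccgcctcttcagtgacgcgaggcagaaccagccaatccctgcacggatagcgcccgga
ZBTB4/POLR2A: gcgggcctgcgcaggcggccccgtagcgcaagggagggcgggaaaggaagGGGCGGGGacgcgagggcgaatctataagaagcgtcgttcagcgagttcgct

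The stretch between SHC1 and CKS1B lies at chr1:154946872-154947128 and held 4 NF-Y matches. None of its bases was under a peak, although both flanks had one. Those of CEP89/FAAP24, at chr19:33462898-33463114, and of WDR46/PFDN6, at chr6:33257025-33257078, also held NF-Y matches and no peak base. The 64 bases between LONP1 and CATSPERD, at chr19:5720584-5720647, began with an NRF1 match and were all under a peak. Among the classical pairs, all 124 bases of TK1/AFMID, at chr17:76183315-76183438, and all 180 of SARS2/MRPS12, at chr19:39421404-39421583, were under a peak. For TMEM258/FEN1, at chr11:61560275-61560382, 26 of 108 bases were. Between the starts of ZBTB4/POLR2A, at chr17:7387583-7387684, no base was under its peak. COL4A4/COL4A3, at chr2:228029170-228029339, and PPAT/PAICS, at chr4:57301782-57301906, had no peak within reach of both starts.

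A CHD4 peak lay within reach of both starts at 374 of the 883 pairs, a share of 42.4% (95% interval 39.1 to 45.6). Pairs that share a gene are not separate promoters, and when each group of such pairs counted once the share was 41.8% (343 of 821). A peak near 1 start only was found at 13 pairs. Protein-coding genes in no divergent pair had a peak within 1000 bp of their start in 33.1% (6082 of 18395). Counting only peaks within 500 bp of the midpoint gave 39.0% of pairs (35.8 to 42.2), against 28.3% of non-divergent starts within 500 bp. Pairs were thus occupied more often than single starts over all promoters.

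That difference was not seen among CpG-rich promoters as a whole. The CpG ratio, the observed over the expected number of CpG dinucleotides, was taken in 600 bp around each midpoint or start. Its median was 0.828 for pairs and 0.691 for non-divergent starts. With a ratio of at least 0.6, 343 of 814 pairs had a peak (42.1%, interval 38.8 to 45.6), against 44.4% of 10644 non-divergent starts. Within 500 bp the shares were 38.7% and 38.3%. Among the most CpG-rich promoters, with a ratio of at least 0.8, the pairs were lower, at 37.2% of 524 (33.2 to 41.4) against 45.3% of 6398 (44.03 to 46.5). With a ratio of 0.6 to 0.8 they were higher, at 51.0% of 290 (45.3 to 56.7) against 43.1% of 4246 (41.6 to 44.6). Only 29 pairs had a ratio under 0.4, of which 37.9% had a peak (22.7 to 56.0), against 13.8% of 5828 non-divergent starts. Among pairs, those with a peak had a lower median ratio than those without, 0.806 against 0.849. Among non-divergent starts the order was the opposite, 0.790 with a peak against 0.565 without.

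**Figure D1:**
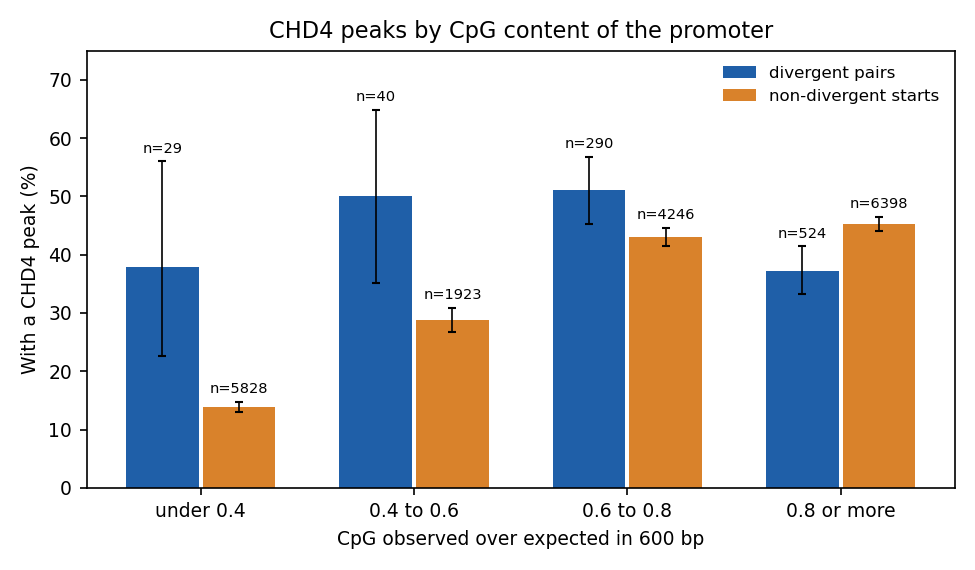
Share of promoters with a CHD4 peak (y axis, percent) in 4 classes of CpG ratio (x axis), for divergent pairs (blue) and non-divergent starts (orange), with the number of promoters above each bar. Bars of error are Wilson 95% intervals. Pairs stand above single starts in the 3 lower classes and below them in the highest, 37.2% against 45.3%.

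Occupancy also varied with the distance between the starts, whose median was 131 bp. A peak was present at 38.8% of pairs up to 100 bp apart (33.8 to 44.03), at 36.4% of those over 100 and up to 200 bp apart (30.7 to 42.5) and at 50.9% of those over 200 and up to 300 bp apart (41.9 to 59.7). Over 300 and up to 500 bp it was 44.1% of 93 pairs (34.4 to 54.2). Over 500 and up to 1000 bp it was 63.2% of 76 pairs (51.9 to 73.1), an interval above those of the pairs up to 100 bp and up to 200 bp apart but overlapping those of the classes in between. Pairs over 1000 and up to 2000 bp apart, which do not meet the rule, had a peak near both starts in 30.5% of 82 (21.6 to 41.1). The windows around the starts overlap less as the spacing grows. Pairs that share a gene were each counted in these classes, so the classes are not fully separate and the intervals are too narrow to that extent. On either side of the limit, APBA3/MRPL54 (990 bp) had 1 peak of 3.42-fold and MS4A6A/MS4A4A (991 bp) and PSMB1/TBP (995 bp) had none, while TXNDC12/BTF3L4 (1008 bp) and ENSG00000268790/TMEM38A (1024 bp) had peaks of 3.06-fold and 3.60-fold.

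Out to 400 bp, CHD4 peaks lay about evenly on both sides of a pair. They lay more often before than inside a single start. In steps of 50 bp, 23.4% of pairs were under a peak 200 bp into the minus-strand side of the midpoint, 20.3% at the midpoint and 23.1% at 200 bp on the plus-strand side. At 400 bp the sides had 19.4% and 18.2%. Single starts were under a peak in 17.8% at 400 bp and 16.6% at 200 bp before the start, 12.8% at the start, and 11.2% at 200 bp and 8.93% at 400 bp inside the gene. A shallow dip at the midpoint was present in pairs up to 100 bp apart, with 19.5% (15.7 to 24.1) at 0 against 25.1% (20.8 to 29.9) and 21.6% (17.6 to 26.2) at 200 bp on the sides, where intervals overlap. Pairs over 300 bp apart had 28.4% at the midpoint against 26.0% and 29.0% at 200 bp.

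**Figure D2:**
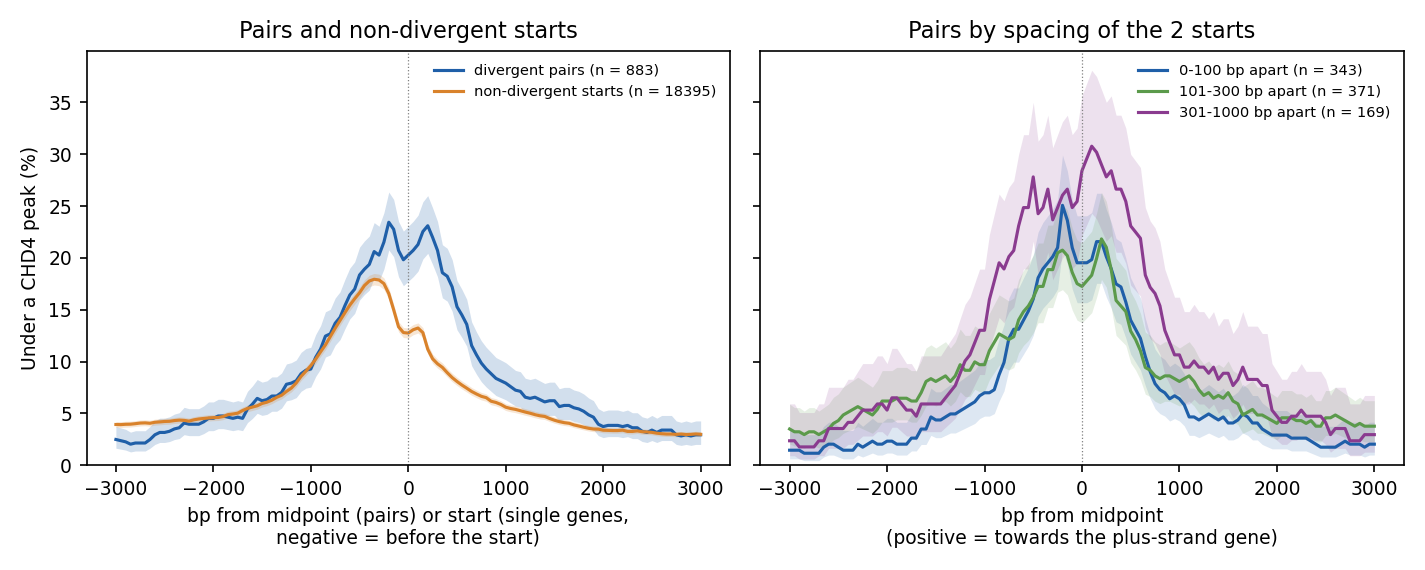
Share of promoters under a CHD4 peak (y axis, percent) by distance in bp (x axis) from the midpoint of a pair or from a single start, where negative is towards the minus-strand gene or before the start. Left, all pairs and non-divergent starts; right, pairs in 3 classes of spacing. Shading is the Wilson 95% interval. The pairs' curve is near symmetric out to 400 bp, with 23.4% and 23.1% at 200 bp on either side. At 700 bp it is higher on the minus-strand side, 14.3% against 10.7%. The single starts' curve falls inside the gene.

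Seen gene by gene, a peak overlapped the first 500 bp inside 29.2% of the 1703 paired genes (27.1 to 31.5), against 16.6% of non-divergent genes (16.1 to 17.1). In the 500 bp before the start the shares were closer, 30.0% and 24.9%. Non-divergent starts with a CpG ratio of at least 0.6 had 19.8% inside (19.02 to 20.5) and 34.4% before the start. For a paired gene the bases before the start are those between the starts and, where the starts are under 500 bp apart, also bases of its neighbour. A peak over both starts therefore counts on both sides. With the start of the canonical transcript instead, the shares inside were 26.1% and 14.6%. Of all pairs, 167 (18.9%) had a peak over the first 500 bp of both genes, 94 of the minus-strand gene only, 93 of the plus-strand gene only and 529 of neither. The minus-strand and plus-strand genes were thus alike in these counts.

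Among the 357 members, 144 (40.3%) covered both starts, 44 covered 1 start, 4 lay between the starts and 165 (46.2%) lay inside a gene past its start. Of the last, 87 were in the minus-strand gene and 78 in the plus-strand gene. The centre of a member lay at a median of 389.5 bp from the midpoint, and within 500 bp for 62.2%. Of the bases under members, 11.1% lay between the starts, 14.5% in exon 1 and 31.0% in intron 1 of the canonical transcripts. Intron 1 thus held the largest of these 3 shares of bases. All exons of the canonical transcripts together held 16.2% and all introns 34.9%. The remaining bases lay outside these transcripts and outside the stretch between the starts. The places of members given above are by outermost starts, so a member inside a gene need not touch its canonical transcript. More members touched exon 1 (237) than intron 1 (231), and 192 touched the stretch between the starts. The shares of bases were not adjusted for the lengths of these features.

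Fold enrichment, the signal over local background as the peak caller gave it, had a median of 3.20 and a range of 2.49 to 5.27. Peaks at non-divergent starts had a median of 3.22 and peaks near no protein-coding start 3.07. A fold of at least 4 was reached by 28 members (7.84%, interval 5.48 to 11.1), against 5.51% of all peaks and 8.67% of peaks at non-divergent starts. A −log10 q of at least 5 was reached by 13 members (3.64%, 2.14 to 6.13), against 2.23% of all peaks and 4.17% of those at non-divergent starts. The lowest −log10 q among members was 1.04 and the highest 7.02. The q cutoff in the study's reporting summary equals a −log10 q of 2, so the deposited list holds peaks below it. At least 2 was reached by 195 members (54.6%), against 48.5% of all peaks and 59.6% of those at non-divergent starts. Members had a median length of 705 bp (at most 6971), against 674 bp at non-divergent starts and 606 bp elsewhere. Those no longer than 300 bp were 10.9% of members (8.10 to 14.6), against 16.9% at non-divergent starts and 20.9% elsewhere. A longer peak comes within reach of both starts more easily, so the rule itself favours longer members. These differences in length are therefore a description only.

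**Figure D3:**
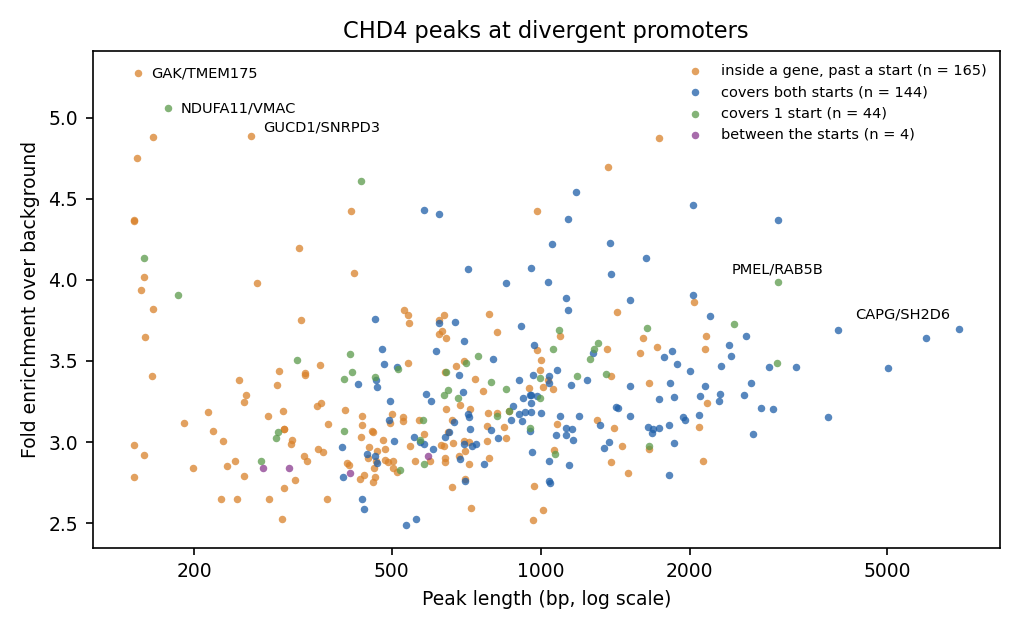
Fold enrichment over background (y axis) against peak length in bp (x axis, log scale) for the 357 members, coloured by where the peak lies relative to the starts. Each point is 1 peak, and 5 are named. The highest fold values are at both short and mid-length peaks, and peaks that cover both starts are long, with a median of 1040 bp.

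The highest fold was at GAK/TMEM175, whose starts lie 14 bp apart. GAK encodes a kinase of clathrin uncoating, and TMEM175 a lysosomal ion channel. The peak, 154 bp at chr4:926344-926497, had a fold of 5.27 and lay in intron 1 of TMEM175. At NDUFA11/VMAC a peak of 177 bp, at chr19:5903926-5904102, had 5.06-fold and covered the outermost start of NDUFA11, a subunit of respiratory complex I. At GUCD1/SNRPD3 a peak of 260 bp, at chr22:24951544-24951803, had 4.89-fold and the highest −log10 q, 7.02, and lay on the GUCD1 side. SNRPD3 is a core protein of the spliceosomal snRNPs. At NPRL2/CYB561D2 the peak of 165 bp, at chr3:50388644-50388808, had 4.88-fold and lay in intron 1 of CYB561D2. NPRL2 is a subunit of GATOR1, which restrains mTORC1.

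SHC1/CKS1B had peaks in both genes, as placed by their outermost starts. That of 1731 bp inside SHC1, which encodes an adaptor of receptor tyrosine kinases, had 4.88-fold at chr1:154945130-154946860. None of its bases lay in an exon or intron of the canonical SHC1 transcript. That of 638 bp in intron 1 of CKS1B, which encodes a subunit of cyclin-dependent kinases, had 3.79-fold at chr1:154947513-154948150. A peak of 153 bp at CEP89/FAAP24 (4.75-fold, chr19:33463190-33463342) spanned exon 1 and intron 1 of FAAP24, a Fanconi anaemia core protein. At WDR46/PFDN6 a peak of 1370 bp (4.70-fold, chr6:33255023-33256392) ran from the edge of exon 3 into intron 8 of WDR46, away from the starts. PFDN6 is a prefoldin subunit. Peaks of 4.61-fold at CSNK1A1/ARHGEF37 (the first is casein kinase 1 alpha), 4.54-fold at LONP1/CATSPERD (a mitochondrial protease and a sperm calcium channel subunit) and 4.46-fold at TMEM143/SYNGR4 completed the 10 highest. Of the 10, 5 were no longer than 300 bp, 6 lay inside a gene past its outermost start, 2 covered both starts and 4 were on chromosome 19.

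The 5 longest members all covered both starts. Among them were those at CAPG/SH2D6 (6971 bp, 3.69-fold), GON4L/SYT11 (5985 bp, 3.64-fold), GPR108/TRIP10 (3980 bp, 3.69-fold) and MARF1/NDE1 (3793 bp, 3.16-fold). CAPG encodes an actin-capping protein. No pair had 3 or more peaks, and 16 had 2.

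PMEL, which encodes the amyloid-forming protein of melanosomes, was the only 1 of 6 melanocyte genes looked at (MITF, SOX10, PMEL, TYR, DCT and MLANA) in a divergent pair, with RAB5B, an early endosome GTPase, 596 bp away. Its peak, 3006 bp at chr12:56364248-56367253, had 3.99-fold and a −log10 q of 3.66. It covered the outermost PMEL start, ran 2853 bp past it and ended 444 bp short of the RAB5B start. No base of it lay in an exon or intron of the canonical PMEL transcript. All 6 genes had a peak within 1000 bp of their outermost start. Peaks do not measure expression, so the presence of melanocyte transcripts was not checked.

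Histone genes, which package DNA and are often paired as H2A with H2B, had a peak at 7 of 11 divergent promoters (63.6%, interval 35.4 to 84.8), against 52.9% of 51 single histone starts. H2BC12/H2AC12 had 3.65-fold, H2AC15/H2BC15 3.65-fold, H2AC14/H2BC14 3.64-fold with 2 peaks and H2BC21/H2AC20 3.57-fold. These genes are near-identical copies. By the study's methods only reads with a single place in the genome were kept, so reads shared by copies are absent.

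Genes of DNA repair and replication had a peak at 17 of 35 divergent promoters (48.6%, 33.0 to 64.4), against 57.1% of 126 single starts. TIPIN/MAP2K1 had 3.81-fold, where TIPIN protects replication forks and MAP2K1 is the MAPK kinase MEK1. UFD1/CDC45 had 3.74-fold at chr22:19466478-19467149, and CDC45 belongs to the replicative helicase. BRCA1/NBR1, a pair by the outermost annotated start of each gene, had 3.73-fold at chr17:41322048-41322670. No base of this peak lay in an exon or intron of the canonical BRCA1 or NBR1 transcript. Its distance from other starts of BRCA1 was not measured. PCNA/CDS2 had 3.68-fold at chr20:5106256-5107073, where PCNA is the sliding clamp of DNA polymerases. This peak too lay in no exon or intron of the canonical transcripts of its pair.

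Mitochondrial protein genes had a peak at 18 of 51 divergent promoters (35.3%, 23.6 to 49.0), an interval that holds the 41.8% of all divergent promoters. Their single starts had one in 56.9% of 188 (49.8 to 63.8), against 33.1% of all single starts. The intervals of the mitochondrial divergent promoters and single starts do not overlap, which held for no other of the 8 lists with 10 or more divergent promoters, and the difference was not tested. Besides NDUFA11, MICOS13/HSD11B1L had 4.14-fold, TSSK6/NDUFA13 3.99-fold and SARS2/MRPS12 3.89-fold. Genes of the ribosome and translation had 9 of 25 (20.3 to 55.5%) against 57.8% of 185 (50.6 to 64.7). Among them VPS52/RPS18 had 3.78-fold and GTPBP2/MAD2L1BP 3.87-fold with 2 peaks. RNA processing genes had 20 of 47 (42.6%, 29.5 to 56.7) against 52.5%, led by GUCD1/SNRPD3 and by NOP10/NUTM1 at 4.13-fold. NOP10 is a protein of H/ACA ribonucleoproteins.

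Chromatin regulator genes had a peak at 12 of 28 divergent promoters (42.9%, 26.5 to 60.9), against 42.4% of 224 single starts. They included partners of CHD4 itself. KCNG3/MTA3 had 3.73-fold over 2454 bp, at chr2:42721472-42723925, and ZBTB8OS/RBBP4 had 3.29-fold over 952 bp, at chr1:33116030-33116981. The RBBP4 peak touched exon 1 of its canonical transcript. That of MTA3 touched no exon or intron of the canonical KCNG3 or MTA3 transcript. MTA3 and RBBP4 are NuRD subunits, and RBBP4 was named after its value was seen. TEX46/KDM1A had 3.37-fold, and KDM1A is a histone demethylase. Proteasome and ubiquitin genes had 10 of 21 (47.6%, 28.3 to 67.6) against 45.4%, with CDCA3/USP5 at 3.61-fold. Zinc finger genes had 9 of 32 (28.1%, 15.6 to 45.4) against 40.1%, with LPXN/ZFP91 at 4.37-fold over 3012 bp. The collagen IV pairs had none of 2.

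**Figure D4:**
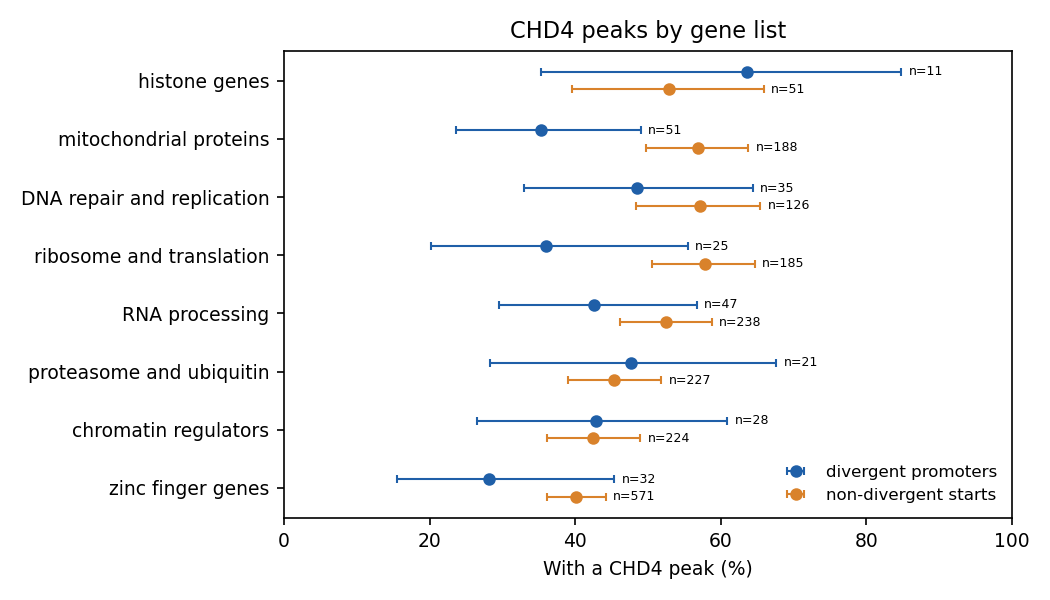
Share of promoters with a CHD4 peak (x axis, percent) for 8 gene lists (y axis), for divergent promoters (blue) and non-divergent starts (orange). Points are shares with Wilson 95% intervals, and n is the number of promoters. Mitochondrial genes have 35.3% at divergent promoters and 56.9% at single starts, with no overlap of the intervals; the intervals of all other lists overlap.

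Of 22 classical bidirectional promoters looked at, 11 met the rule, since in the others the outermost start of the plus-strand gene lies before that of the minus-strand gene, so that the genes overlap. A peak was near both starts at 5 of the 11. They were TK1/AFMID at 3.35-fold (chr17:76182978-76184494), TMEM258/FEN1 at 3.57-fold (chr11:61559022-61560300), DIDO1/GID8 at 3.13-fold (chr20:61568467-61568993), SARS2/MRPS12 at 3.89-fold (chr19:39420637-39421760) and ZBTB4/POLR2A at 3.25-fold (chr17:7386951-7387202). TK1 is thymidine kinase, FEN1 the flap endonuclease of lagging-strand synthesis and POLR2A the largest subunit of RNA polymerase II. COL4A4/COL4A3, COL4A6/COL4A5, NPAT/ATM, PRKDC/MCM4, PPAT/PAICS and PSMB1/TBP had none.

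The share of occupied pairs differed among chromosomes. Of the 19 chromosomes with at least 20 pairs, it was highest with 66.2% of 74 on chromosome 19 (54.9 to 76.0) and 59.6% of 47 on chromosome 3 (45.3 to 72.4), and lowest with 26.1% of 23 on chromosome 8 (12.6 to 46.5), 22.5% of 40 on chromosome 14 (12.3 to 37.5) and 4.17% of 24 on chromosome X (0.739 to 20.2). Single starts had 41.7%, 39.0%, 26.4%, 21.1% and 9.12% on the same chromosomes. Pairs were above single starts on 16 of these 19. These shares are over all promoters and were not split by CpG ratio, which differs between pairs and single starts.

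In the 600 bp windows, ETS letters were in 16.3% of pairs and 5.32% of single starts, NRF1 letters in 10.4% and 4.31%, NF-Y in 27.6% and 20.3%, SP1/KLF in 43.9% and 35.3%, CREB in 5.10% and 2.56%, YY1 in 9.63% and 4.95%, E-box in 16.2% and 12.4%, AP-1 in 7.36% and 11.3%, and the TATA box in 9.29% and 17.3%. NRF1 letters were in 10.4% of pairs with a peak and 10.4% of those without. AP-1 letters were in 10.2% of pairs with a peak (7.49 to 13.6) and 5.31% of those without (3.67 to 7.61), so that 58.5% of the 65 pairs with them had a peak (46.3 to 69.6), against 41.1% of the other pairs. Among single starts the order was the opposite, 28.2% with and 33.7% without AP-1 letters. The AP-1 contrast among pairs was the widest of the motifs looked at and was not tested. For the TATA box, 52.4% of pairs with it and 41.3% of those without had a peak. For YY1 letters the shares were 35.3% and 43.1%. The intervals overlap for both. A match is a stretch of letters and not a shown binding site.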

How the data were processed

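One CHD4 ChIP-seq library and 1 input library of 501Mel cells were used. Which library served as the background in peak calling is not given by the labels, and it was taken to be the input. By the submitters' processing notes, bcl2fastq 2.17.1.14, Bowtie 1.0.0 and MACS2 2.1.1.20160309 were used with hg19. The library kit is NEXTflex per the labels and MicroPlex v2 in the study's methods. The authors deposited a broad peak list with a fold enrichment ratio and the −log10 of p-values and q-values for each peak. It was not filtered further. Peak starts were shifted to count from 1.

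Genes came from GENCODE release 44 on GRCh37, each placed at its outermost start. Shares carry Wilson 95% intervals (Python 3.11.15, pandas 2.3.3), and 1 shared bp was an overlap. The code was tested on simulated peaks. Members and gene lists were chosen with earlier results of these data known. The genes named are the 10 members of highest fold, the 5 longest, pairs with 3 or more peaks, classical pairs, up to 4 pairs of each list by fold, pairs at the 1000 bp limit and melanocyte markers. Lists were matched by symbol, and 15 symbols that matched by letters alone were removed by name. Alternatives changed the q minimum, merging, reach, spacing, start and chromosomes. A few items named by these rules are not reported here.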

Additional observations from a re-analysis of the deposited data

How the results depend on the processing

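No paired analysis was possible because each kind of library was sequenced once; for the same reason no library could be left out. Of 76 values under other settings, 46 stayed within the counting interval of the reported value (a count, within 1.5 times) and 30 did not. With peaks of −log10 q of at least 2, there were 195 members, with a median of 3.475-fold and 954 bp, 46.67% over both starts; 23.78% of pairs (22.2% at the midpoint) and 20.54% of non-divergent starts had a peak. With −log10 q of at least 5, 13 members were left, of 4.698-fold and 624 bp, at 1.925% of pairs (1.812% at the midpoint) and 1.484% of non-divergent starts. Merging peaks within 1000 bp gave a median length of 816 bp and 46.96% over both starts. Within 500 bp of the starts, the shares were 36.35% of pairs and 28.3% of non-divergent starts, with 48.16% of members over both starts; within 2000 bp they were 47%, 37.87% and 33.03%. Canonical starts gave 34.51% of non-divergent starts and 32.9% over both starts, and leaving out X gave 34.18% of non-divergent starts. The share was higher for pairs than for non-divergent starts in each of these settings, but the intervals overlap at −log10 q of at least 2 (21.09 to 26.7 and 19.96 to 21.13) and at 5 (1.205 to 3.062 and 1.319 to 1.669). With a CpG ratio of at least 0.6, a comparison added after seeing the data, pairs were below non-divergent starts at −log10 q of at least 2 (23.46% and 28.08%), within 500 bp (36.24% and 38.28%), within 2000 bp (46.31% and 49.11%) and with canonical starts (40.24% and 45.0%). Shares counted by groups of pairs or by either start were also added after seeing the data. The causes were not tested. The list holds no read counts per peak, and the read totals that the study's reporting summary gives were not used here.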
